A study of Mus musculus with 8 samples.

Results

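The genes described here are 10 receptors, ligands and scavenger molecules that phagocytes use to recognise and ingest dying cells: Mertk, Axl, Tyro3, Gas6, Pros1, Timd4, Stab1, Mrc1, Msr1 and Marco. They were taken by symbol from the 32285 genes of 4 single-cell RNA libraries, and their levels were read in phagocyte classes named by marker genes. The libraries hold live CD45+ leukocytes taken by flow sorting out of pooled posterior eye cups; the mice were female and 10 to 12 weeks old, and antibody tags for surface proteins were counted in the same cells. The groups were Nr4a1-/- laser and WT laser, with pools of 11 to 12 animals whose eyes had been given 8 burns each and were collected at day 3, and Nr4a1-/- control and WT control, with pools of 22 animals and no laser. Laser burns break Bruch's membrane and start choroidal neovascularization, and Nr4a1 encodes an orphan nuclear receptor of monocytes and macrophages. The sample labels give C57BL/6J for every library, whereas the study's methods name the Nr4a1-/- line B6;129S2-Nr4a1tm1Jmi/J, so strain background and genotype cannot be told apart. Eyes were pooled within each group before sorting and 1 library was made per group, so no comparison below has a biological replicate, and every interval covers counting error only. The Nr4a1-/- control library also has another library number than the other 3, and a difference between library preparations cannot be told apart from the group.

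Engulfment of dying cells, or efferocytosis, begins when phosphatidylserine appears on the surface of a dying cell. The TAM receptor tyrosine kinases Tyro3, Axl and Mertk do not touch this lipid themselves. They bind the bridging proteins Gas6 and protein S (encoded by Pros1), which hold phosphatidylserine at one end and the receptor at the other. Tim-4 (Timd4) and stabilin-1 (Stab1) bind phosphatidylserine directly. The mannose receptor CD206 (Mrc1) and the class A scavenger receptors CD204 (Msr1) and MARCO (Marco) take up glycoproteins, modified lipoproteins and debris. In the eye, Mertk is best known for the daily uptake of photoreceptor outer segments by the retinal pigment epithelium, and resident macrophages and microglia carry the same machinery.

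Of 11624 cell barcodes, 11223 cells were kept, and 5225 of them fell into phagocyte classes. Among the kept cells, Nr4a1-/- laser gave 1649, WT laser 3791, Nr4a1-/- control 2020 and WT control 3763, with median depths of 3676, 7618, 5478 and 5202 unique molecules (UMIs) per cell in that order. The libraries shared 18 barcodes, 17 of them among the kept cells. Nr4a1 itself lay below the WT level in 19 of 19 class comparisons between Nr4a1-/- and WT, at 0.0858 to 0.492 times the WT level. The classes were named "-like" from their leading marker genes after clustering without the 10 genes and without the Tim-4 and CD204 tags. The Ms4a7 macrophage-like class scored best for the Bmp2 P2rx7 marker list but was named from general macrophage markers, so these 2 classes were not separated by marker score. Another 2 classes were named after the study's clusters of monocyte-derived macrophages (MDM), and the origin of their cells was not tested. MDM-A-like cells were led by Cxcl1 and Cxcl2, but also by Ccl8 and Cbr2, which lead the Lyve1 Folr2 resident class. MDM-B-like cells were led by Spp1, Gpnmb and Arg1. Together these 2 classes made up 43.8% of macrophage-like cells in Nr4a1-/- laser and 50.7% in WT laser, against 2.85% in Nr4a1-/- control and 7.33% in WT control. They were therefore compared only between genotypes after laser. Of 381 macrophage-like cells in Nr4a1-/- laser, 80 were MDM-A-like and 87 MDM-B-like. Of 752 in WT laser, 268 were MDM-A-like and 113 MDM-B-like, so the joint share does not hold for each class. Clusters led by lymphocyte genes within the phagocytes and unnamed clusters of low depth were left out of the classes.

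The genomic context of the genes is given for Mertk, Mrc1 and Timd4, which with Msr1 are the members whose level changed at least 2-fold after laser in the same class in both genotypes. Mertk lies on chromosome 2 (chr2:128698956-128802894, plus strand), Mrc1 on the same chromosome (chr2:14229392-14332057, plus strand) and Timd4 on chromosome 11 (chr11:46810800-46844332, plus strand), all in GRCm38. The promoters below are the 300 bases of RefSeq (GRCm38.p6) from 250 bases before to 50 bases after the gene start in the RefSeq annotation. They lie at chr2:128698665-128698964 for Mertk, chr2:14229164-14229463 for Mrc1 and chr11:46810549-46810848 for Timd4, and all 3 are printed on the plus strand. Capitals mark matches to the ETS core GAGGAA in Mrc1 and to the MAF half-site TGCTGA in Timd4, on either strand, so that they read TTCCTC and TCAGCA here.
Mertk: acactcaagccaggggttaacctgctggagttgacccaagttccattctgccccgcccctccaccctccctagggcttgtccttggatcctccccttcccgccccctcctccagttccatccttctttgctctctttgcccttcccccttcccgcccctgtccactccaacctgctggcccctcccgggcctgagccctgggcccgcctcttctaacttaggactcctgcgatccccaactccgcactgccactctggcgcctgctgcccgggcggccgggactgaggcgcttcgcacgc
Mrc1: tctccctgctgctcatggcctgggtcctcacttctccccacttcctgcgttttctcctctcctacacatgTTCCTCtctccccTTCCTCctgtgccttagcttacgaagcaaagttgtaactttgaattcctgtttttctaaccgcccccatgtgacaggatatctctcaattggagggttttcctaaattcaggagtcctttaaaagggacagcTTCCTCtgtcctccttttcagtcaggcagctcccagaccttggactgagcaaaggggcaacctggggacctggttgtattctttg
Timd4: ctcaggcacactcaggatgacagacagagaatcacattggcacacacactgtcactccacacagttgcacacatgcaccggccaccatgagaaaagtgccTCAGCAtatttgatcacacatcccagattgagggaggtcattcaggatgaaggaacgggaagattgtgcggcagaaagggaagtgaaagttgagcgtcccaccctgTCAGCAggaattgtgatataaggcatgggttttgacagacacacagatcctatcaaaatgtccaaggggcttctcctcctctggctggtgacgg

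Both strands of the 9 member promoters in the RefSeq table were searched. The ETS core was found in 4 of 9 (Axl, Stab1, Mrc1 with 3 matches and Marco) and in 28.3% of all 32851 promoters of the same length. The MAF half-site was found in 2 of 9 (Timd4 with 2 matches and Stab1) and in 19.5% of all promoters. The NR4A monomer element AAAGGTCA was in none of the 9 member promoters and in 1.51% of all, and the full PU.1 site GAGGAAGT, which contains the ETS core, was in none of the 9 and in 3.2% of all. The other motifs searched (an interferon element, a liver X receptor repeat and the cyclic AMP element) matched none of the 9 member promoters and 3.44%, 0.0152% and 1.79% of all, in that order. These are letter matches in a short window and do not show binding.

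Levels are given as CPM, in which each gene's UMIs are divided by the UMI total of a class in a library and brought to a common size of library, with exact Poisson 95% intervals. They are compared between classes and libraries for one gene, not between genes, because the 3' counts carry no scale per length. Of the 10 genes, 8 passed a minimum of 200 UMIs in the kept cells, from 2391 UMIs for Timd4 to 23817 for Mrc1. Tyro3 had 23 UMIs and none of them in a phagocyte class, and Marco had 13, of which 12 lay in phagocyte classes. As a measure of free RNA, the 8 genes reached at most 14.8 CPM (Mrc1) in B-like, T-like and NK-like cells, and at most 2.86% of lymphocytes had a UMI once every cell was thinned to 2000 UMIs, at median depths of 1966 to 5904 UMIs before thinning.

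**Figure D1:**
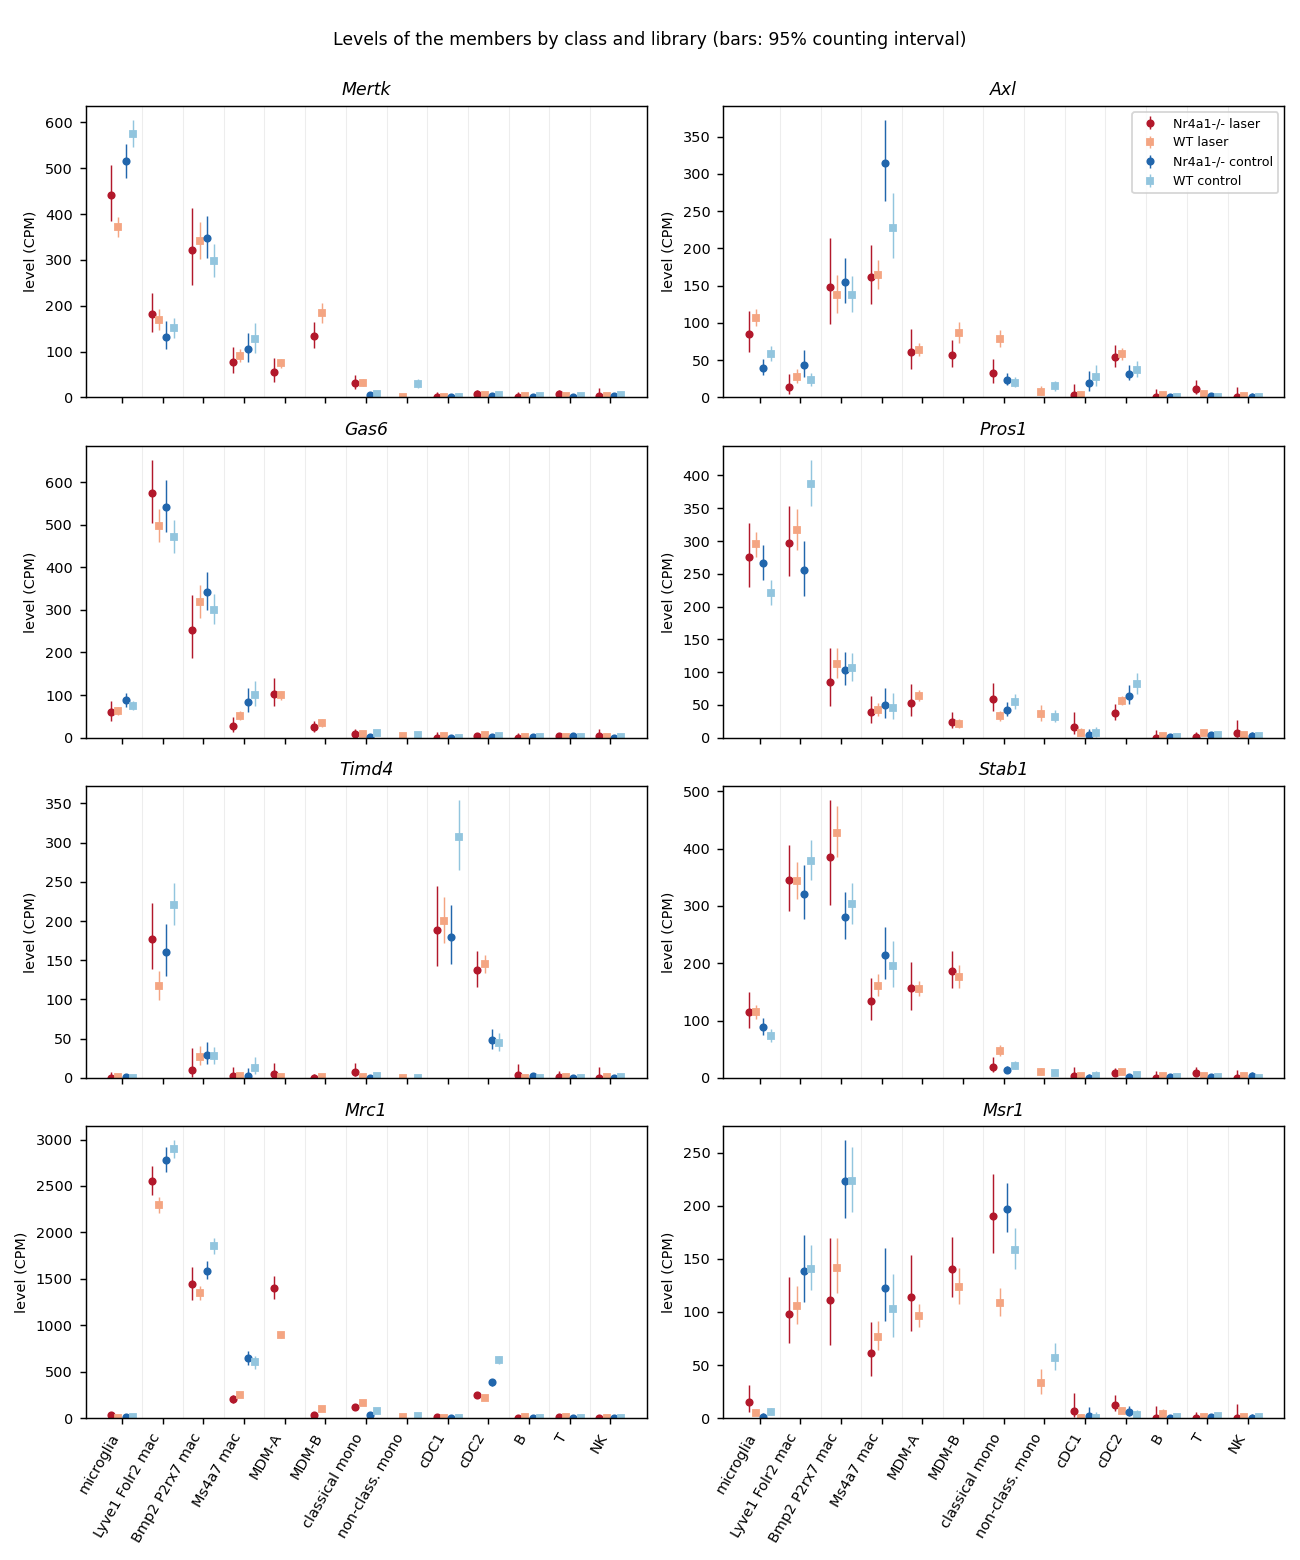
Level in CPM (y axes, linear, starting at 0) of 8 members by class (x axes) in the 4 libraries, drawn where the class held at least 20 cells, with B-like, T-like and NK-like cells at the right as background. Points are single libraries and bars are exact 95% counting intervals. Mertk stood highest in microglia-like cells (371 to 575 CPM), Gas6 and Mrc1 in Lyve1 Folr2 resident macrophage-like cells, and Timd4 in that class and in both conventional dendritic cell classes.

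Among the TAM receptors, Mertk was highest in microglia-like cells when the named classes were compared. It stood there at 443 CPM (interval 385 to 507) in Nr4a1-/- laser, 371 (351 to 393) in WT laser, with 516 (480 to 553) in Nr4a1-/- control and 575 (545 to 606) in WT control. The Bmp2 P2rx7 macrophage-like class came next with 322, 341, 348 and 298 CPM in that order of libraries. The intervals of these 2 classes overlapped in both laser libraries and were apart in both controls. Lyve1 Folr2 resident macrophage-like cells had 133 to 182 CPM, and Ms4a7 macrophage-like cells 78.2 to 127 CPM. Of the MDM classes, MDM-B-like cells had 134 CPM in Nr4a1-/- laser and 183 in WT laser, and MDM-A-like cells had 55.6 and 74.3 CPM. Conventional dendritic cells had little, with 3.29 to 7.72 CPM in cDC2-like and at most 1.62 in cDC1-like cells, where lymphocytes had at most 6.58. After thinning, 42.3% to 57.3% of microglia-like cells had a Mertk UMI.

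Axl, the TAM receptor that binds Gas6 but not protein S, was ordered otherwise. The Ms4a7 macrophage-like class led in every library, with 161 CPM in Nr4a1-/- laser, 164 in WT laser, with 315 in Nr4a1-/- control and 228 in WT control, followed by Bmp2 P2rx7 macrophage-like cells at 137 to 155 CPM. The intervals of these 2 classes overlapped in both laser libraries and were apart in both controls. Lyve1 Folr2 resident macrophage-like cells, which carried Mertk, had only 14.4 to 43.2 CPM of Axl. In microglia-like cells Axl stood at 85.6 CPM in Nr4a1-/- laser and 106 in WT laser, against 39.7 in Nr4a1-/- control and 58.2 in WT control. Both laser values lay above both control values there. Tyro3 gave 0 UMIs in each phagocyte class of each library, and of its 23 UMIs 10 lay in a cluster led by non-immune genes and most of the others in lymphocytes.

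Gas6, the bridging ligand of all TAM receptors, was highest in resident macrophages. Lyve1 Folr2 resident macrophage-like cells had 575 CPM (504 to 652) in Nr4a1-/- laser, 497 (460 to 537) in WT laser, with 541 (482 to 604) in Nr4a1-/- control and 472 (434 to 512) in WT control. Bmp2 P2rx7 macrophage-like cells had 253, 319, 342 and 300 CPM in the same order, below the first class without overlap of intervals in any library. MDM-A-like cells followed after laser with 103 CPM in Nr4a1-/- and 99.0 in WT. Microglia-like cells, the highest in Mertk, had 59.9 to 87.4 CPM of its ligand. Monocytes and dendritic cells had at most 12.1 CPM.

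Protein S gave another picture, since Pros1 was shared by resident macrophages and microglia. It stood at 297 CPM in Nr4a1-/- laser, 316 in WT laser, with 256 in Nr4a1-/- control and 387 in WT control in Lyve1 Folr2 resident macrophage-like cells. In microglia-like cells it stood at 276, 295, 266 and 221 CPM in the same order. The intervals of the classes overlapped in 3 of 4 libraries and were apart in WT control, where the resident class was higher. Bmp2 P2rx7 macrophage-like cells had 84.5 to 113 CPM, cDC2-like cells 37.6 to 81.4 and classical monocyte-like cells 32.4 to 59.8.

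Timd4 was split between one macrophage class and the dendritic cells. In Lyve1 Folr2 resident macrophage-like cells it had 177 CPM (139 to 222) in Nr4a1-/- laser, 117 (98.9 to 137) in WT laser, with 161 (130 to 197) in Nr4a1-/- control and 221 (195 to 249) in WT control. In cDC1-like cells, the dendritic cells specialised in cross-presentation, it had 188, 200, 180 and 307 CPM in the same order. The cDC2-like cells had 137 CPM in Nr4a1-/- laser and 145 in WT laser, against 48.5 in Nr4a1-/- control and 44.6 in WT control. Bmp2 P2rx7 macrophage-like cells had 10.6 to 29.7 CPM, and microglia-like cells, MDM-B-like cells and non-classical monocyte-like cells had at most 1.19 CPM. The spread over cells differed between the classes. In the resident class the cells with a Timd4 UMI had a median of 2 UMIs in every library and at most 6 to 12, whereas in cDC1-like cells the median was 2.5 to 5 UMIs and the highest cell had 13 to 35. These are raw counts, and cDC1-like cells were deeper. Their median depth was 7304 to 16122 UMIs over the libraries, against 4789.5 to 9751.5 in the resident class. The part of depth in this difference was not tested.

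Stab1 was high in both tissue macrophage classes. Bmp2 P2rx7 macrophage-like cells had 385 CPM in Nr4a1-/- laser and 428 in WT laser, against 281 in Nr4a1-/- control and 303 in WT control. Lyve1 Folr2 resident macrophage-like cells had 345 and 343 CPM after laser, against 321 and 379 in control, in the same order of genotypes. The first class was thus the higher one in both laser libraries and the lower one in both controls, with intervals apart only in the 2 WT libraries. MDM-B-like cells had 187 CPM in Nr4a1-/- laser and 176 in WT laser, and MDM-A-like cells had 156 in each. Ms4a7 macrophage-like cells had 134 to 214 CPM and microglia-like cells 73.4 to 116.

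Mrc1 was highest in resident macrophages. Lyve1 Folr2 resident macrophage-like cells had 2555 CPM in Nr4a1-/- laser, 2294 in WT laser, with 2780 in Nr4a1-/- control and 2895 in WT control, and 94.3% to 98.7% of the thinned cells had a UMI. Bmp2 P2rx7 macrophage-like cells had 1442, 1347, 1590 and 1854 CPM in the same order, with intervals below the first class in every library. The MDM classes were far apart: MDM-A-like cells had 1401 CPM in Nr4a1-/- laser and 893 in WT laser, whereas MDM-B-like cells had 36.8 and 94.7. The cDC2-like cells had 219 to 625 CPM and cDC1-like cells at most 9.92.

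Msr1 was high in monocytes as well as in tissue macrophages. Classical monocyte-like cells had 190 CPM in Nr4a1-/- laser, 109 in WT laser, with 197 in Nr4a1-/- control and 159 in WT control. Bmp2 P2rx7 macrophage-like cells had 111, 142, 223 and 223 CPM in the same order. MDM-B-like cells had 140 CPM in Nr4a1-/- laser and 123 in WT laser, and MDM-A-like cells had 114 and 95.9. Microglia-like cells (at most 14.97 CPM) and conventional dendritic cells (at most 12.5) were low. Marco, the other class A scavenger receptor, gave at most 7.07 CPM, and its 5 UMIs in Nr4a1-/- laser MDM-B-like cells all came from 1 cell.

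The likeness of the members was then described across classes. Over the 52 sums of class and library with at least 20 cells, lymphocyte classes included, the members most alike were Mertk and Stab1 (Spearman rho 0.88), Gas6 and Stab1 (0.85), Gas6 and Pros1 (0.83) and Gas6 and Mertk (0.81). Timd4 stood apart, with a rho of −0.06 to Mertk. Among 11219 genes, those most like Mertk were Lonrf3 (0.93), Pla2g15 and Fblim1, those most like Gas6 were Selenop (0.92), Rnase4 and C3ar1, and those most like Mrc1 were Pltp (0.91), Pf4 and Lifr. Axl was followed most closely by Cyfip1 (0.89), Epb41l2 and Tnfrsf11a, Pros1 by Bach1 (0.92), Dock1 and Zfand5, and Stab1 by Atp6v1a (0.94), Mitf and Cltc. Msr1 was followed by Ifi204 (0.88), Ms4a6d and Apobec1, and Timd4 more loosely by Ncoa7 (0.79), Cpq and Tbc1d4. These are descriptions across sums that share libraries and depth.

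The first comparison asked how laser injury changed the members within a class. A ratio was taken where both libraries held at least 20 cells of the class and at least 20 UMIs of the gene between them, and its exact 95% interval comes from the split of those UMIs. In Nr4a1-/- eyes 6 of 42 measured pairs of gene and class were at least 2-fold higher after laser and 5 at least 2-fold lower, beside 6.27% and 7.12% of all gene and class pairs. In WT eyes 8 of 58 were higher and 7 lower, beside 6.39% and 4.46%. In 5 of the 42 pairs measured in both genotypes the change reached 2-fold and had one direction in Nr4a1-/- and WT alike, beside 2.92% of all such pairs. These were Mertk and Mrc1 in classical monocyte-like cells, Timd4 and Msr1 in cDC2-like cells, all higher, and Mrc1 in Ms4a7 macrophage-like cells, lower.

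**Figure D2:**
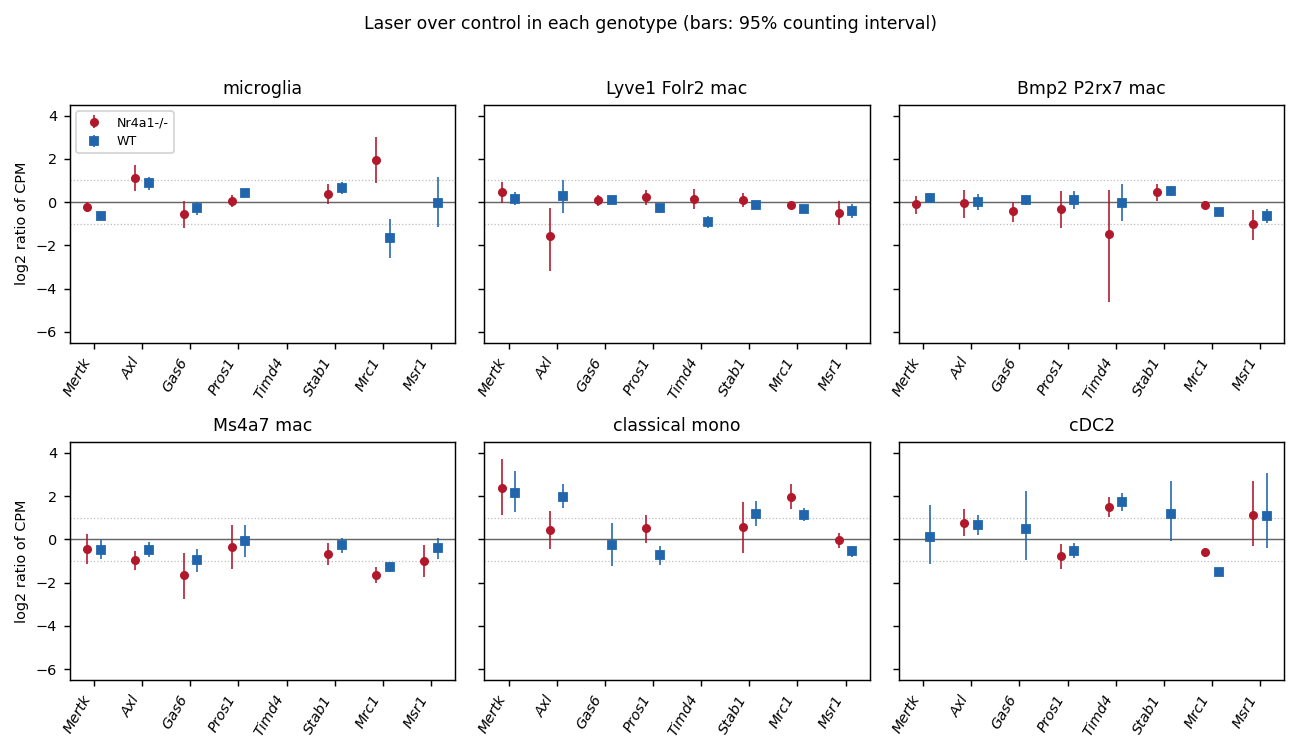
Ratio of CPM in laser over control on a log2 scale (y axes) for each member (x axes) in 6 classes, with Nr4a1-/- as red circles and WT as blue squares. Bars are exact 95% counting intervals, dotted lines mark 2-fold, and only genes with at least 20 UMIs in the pair of libraries are drawn. All measured members lay below 0 in Ms4a7 macrophage-like cells of both genotypes, whereas Mertk and Mrc1 lay above 1 in classical monocyte-like cells.

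In classical monocyte-like cells, the circulating precursors of MDM, several members were higher after laser. Mertk had 30.8 CPM (17 UMIs) in Nr4a1-/- laser against 6.02 (9 UMIs) in Nr4a1-/- control, a ratio of 5.12 (2.16 to 13.03), and 32.4 CPM in WT laser against 7.27 in WT control, a ratio of 4.47 (2.42 to 9.01). Both control levels were near the highest lymphocyte value of 6.58 CPM. A Mertk UMI was found in 8.08% of Nr4a1-/- laser and 13.1% of WT laser cells, against 4.14% and 2.86% in control. After laser, 1 cell held 29.4% of the Mertk UMIs in Nr4a1-/- and 21.8% in WT. Mrc1 had 123 CPM in Nr4a1-/- laser against 31.4 in Nr4a1-/- control, a ratio of 3.92 (2.66 to 5.81), and 163 in WT laser against 73.9 in WT control, a ratio of 2.20 (1.79 to 2.72). Both laser values lay above both control values for each gene. Axl was 3.91 times its control level in WT (2.69 to 5.85), with 78.2 CPM in laser against 19.98 in control, and 1.35 times in Nr4a1-/- (0.724 to 2.45). When each cell was instead gated by its own marker score, the log2 ratio of Axl in WT was 0.26 in place of 1.97. Stab1 was 2.24 times its control level in WT (1.52 to 3.37) and 1.49 times in Nr4a1-/- (0.645 to 3.26). The difference between the genotypes was not tested. Msr1 did not follow, at 0.964 times control in Nr4a1-/- (0.764 to 1.21) and 0.685 in WT (0.574 to 0.816). The 10 general macrophage markers, none of them at 0, moved with these genes, summing to 7643 CPM in Nr4a1-/- laser and 11664 in WT laser classical monocyte-like cells, against 4360 in Nr4a1-/- control and 5017 in WT control, and their part in the result was not tested. Under the same gate Mrc1 in WT was 0.837 times control.

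In Ms4a7 macrophage-like cells the members went the other way. All 7 measured members had ratios below 1 in both genotypes, with a median log2 ratio of −0.96 in Nr4a1-/- and −0.48 in WT, against −0.06 and −0.09 over all measured genes of the class. Mrc1 had 205 CPM in Nr4a1-/- laser against 644 in Nr4a1-/- control (0.319, interval 0.247 to 0.409), and 248 in WT laser against 600 in WT control (0.414, interval 0.355 to 0.482). With the per-cell gate the log2 ratio in WT was −0.69 in place of −1.27, short of 2-fold. Gas6 had 26.9 CPM in Nr4a1-/- laser against 84.6 in Nr4a1-/- control (0.318), and 51.3 in WT laser against 101 in WT control (0.510). Axl, the leading TAM receptor of this class, was at 0.512 times control in Nr4a1-/- and 0.720 in WT, with both intervals below 1. For Mrc1, Gas6 and Axl both laser values lay below both control values. Markers of classical monocytes and MDM moved in this class too. The 10 classical monocyte markers, 1 to 5 of them at 0, summed to 873 CPM in Nr4a1-/- laser and 1015 in WT laser, against 374 in Nr4a1-/- control and 88.3 in WT control, and the 10 MDM-B markers, 0 to 2 of them at 0, summed to 3637 and 3032 CPM against 1501 and 2213. Their part in the result was not tested.

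In microglia-like cells Axl was higher after laser, at 2.16 times control in Nr4a1-/- (1.41 to 3.28) and 1.83 times in WT (1.496 to 2.24). Mertk was lower, at 0.859 times control in Nr4a1-/- (0.733 to 1.00) and 0.646 in WT (0.597 to 0.698). Stab1 stood at 1.30 (0.9303 to 1.80) and 1.56 (1.30 to 1.88) and Pros1 at 1.04 (0.843 to 1.27) and 1.33 (1.20 to 1.48). For Axl and Stab1 both laser libraries were above both controls, and for Mertk both were below. The 10 MDM-B markers, 0 to 3 of them at 0, also moved in this class, summing to 5247 CPM in Nr4a1-/- laser and 793 in WT laser, against 354 in Nr4a1-/- control and 335 in WT control, and their part in these ratios was not tested. Mrc1 was low in this class, with 38.5 CPM in Nr4a1-/- laser, 4.97 in WT laser, with 10.1 in Nr4a1-/- control and 15.7 in WT control. Of its 18 UMIs in Nr4a1-/- laser 72.2% came from 1 cell, and without the highest cell of each library the ratio in Nr4a1-/- was 1.59 (0.427 to 5.11) in place of 3.82. In WT the Mrc1 ratio was 0.317 (0.165 to 0.582), and with clusters from RNA alone it was 2.25.

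The 2 tissue macrophage classes were compared in the same way. In Bmp2 P2rx7 macrophage-like cells Stab1 was higher after laser, at 1.37 times control in Nr4a1-/- (1.03 to 1.81) and 1.41 in WT (1.21 to 1.65), and Msr1 was lower, at 0.498 (0.299 to 0.789) and 0.636 (0.505 to 0.799). Mertk and Axl had intervals that included 1 in both genotypes. Timd4 was at 0.355 (0.0403 to 1.46) in Nr4a1-/-, from 2 UMIs in laser and 20 in control, and at 0.986 (0.538 to 1.80) in WT. In Lyve1 Folr2 resident macrophage-like cells Mrc1 was slightly lower, at 0.919 (0.850 to 0.993) in Nr4a1-/- and 0.793 (0.755 to 0.832) in WT. Gas6 was at 1.06 (0.895 to 1.26) and 1.05 (0.940 to 1.18) there. Axl had 14.4 CPM (6 UMIs) in Nr4a1-/- laser against 43.2 (25 UMIs) in Nr4a1-/- control, a ratio of 0.333 (0.112 to 0.831), and in WT the ratio was 1.21 (0.716 to 2.05). Timd4 in the same class was at 1.10 (0.802 to 1.51) in Nr4a1-/- and 0.528 (0.430 to 0.646) in WT, and the difference between the genotypes was not tested. The 10 neutrophil markers, 1 to 6 of them at 0, summed to 148 CPM in Nr4a1-/- laser, 146 in WT laser, with 180 in Nr4a1-/- control and 1054 in WT control of this class, and their part in the WT ratios was not tested.

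Timd4 was higher after laser in cDC2-like cells, at 2.83 times control in Nr4a1-/- (2.07 to 3.90) and 3.25 times in WT (2.48 to 4.35). A Timd4 UMI was found in 29 of 166 cells in Nr4a1-/- laser and 77 of 295 in WT laser, against 12 of 98 in Nr4a1-/- control and 13 of 106 in WT control. Cells with 5 or more UMIs numbered 11 and 41 after laser, against 6 and 3 in control, in the same order of genotypes, so that most of the cells had no Timd4 UMI. In WT control 43.9% of the UMIs came from 1 cell, and without the highest cell of each library the ratios were 3.16 in Nr4a1-/- and 5.16 in WT. Mrc1 was lower in the same class, at 0.656 times control in Nr4a1-/- (0.562 to 0.765) and 0.350 in WT (0.318 to 0.386). Both Msr1 ratios rested on few UMIs, 13 against 7 in Nr4a1-/- and 28 against 4 in WT, with ratios of 2.18 (0.809 to 6.46) and 2.13 (0.746 to 8.37).

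At a finer resolution, chosen after seeing the data, the cDC2-like class parted into a cluster led by Ifitm1, Il1r2 and Klrd1 that held Timd4 and one led by Lyz1, Retnla and Fn1 that held Mrc1. In the first cluster Timd4 had 199 CPM in Nr4a1-/- laser and 212 in WT laser, against 74.5 in Nr4a1-/- control and 52.2 in WT control, with ratios of 2.67 (1.86 to 3.89) and 4.06 (2.70 to 6.39). In the Lyz1 Retnla cluster Timd4 had 6.20 and 16.5 CPM against 28.7 and 40.9, with ratios of 0.216 (0.0243 to 0.894) and 0.403 (0.226 to 0.708). Mrc1 stood there at 731 CPM in Nr4a1-/- laser and 550 in WT laser, against 666 in Nr4a1-/- control and 940 in WT control, and its ratios were 1.10 (0.934 to 1.29) and 0.585 (0.528 to 0.648). Mertk had 15.5 and 12.2 CPM there after laser, against 6.05 and 8.67 in control, on 4 to 17 UMIs. Its ratios were 2.56 (0.551 to 12.9) and 1.41 (0.554 to 4.01), with intervals that included 1. Both laser values and the WT control value were above the highest lymphocyte value of 6.58. The Ifitm1 cluster held 117 and 206 cells after laser against 50 and 44 in control, and the Lyz1 Retnla cluster 47 and 86 against 46 and 61. The part of these cell numbers in the lower Mrc1 level of the whole class was not tested. When cells were clustered on RNA alone, only the Lyz1 Retnla cluster received the cDC2-like name, and Timd4 in it was at 0.229 times control in Nr4a1-/- and 0.820 in WT.

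The other ratios of laser over control past 2-fold were in WT and rested on few UMIs. Mertk in non-classical monocyte-like cells was at 0.0660 (0.00775 to 0.253), with 2 UMIs in laser and 44 in control, of which 84.1% came from 1 cell. Axl in cDC1-like cells was at 0.114 (0.0213 to 0.393), on 3 and 17 UMIs. In neutrophil-like cells Axl was at 3.18 (1.47 to 7.45), Msr1 at 0.465 (0.227 to 0.896) and Mrc1 at 0.102 (0.0268 to 0.277), the last turning to a log2 ratio of 0.86 at a clustering resolution of 0.8. Stab1 in cDC2-like cells was at 2.23 (0.948 to 6.41), on 44 and 6 UMIs.

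The second comparison asked how the members differed between Nr4a1-/- and WT within a treatment. After laser 4 of 66 measured pairs of gene and class were at least 2-fold higher in Nr4a1-/- and 6 at least 2-fold lower, beside 3.26% and 6.48% of all pairs. In control 0 of 46 were higher and 3 lower, beside 2.88% and 4.55%. None of the 43 pairs measured in both treatments reached 2-fold with one direction after laser and in control, beside 0.836% of all such pairs.

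**Figure D3:**
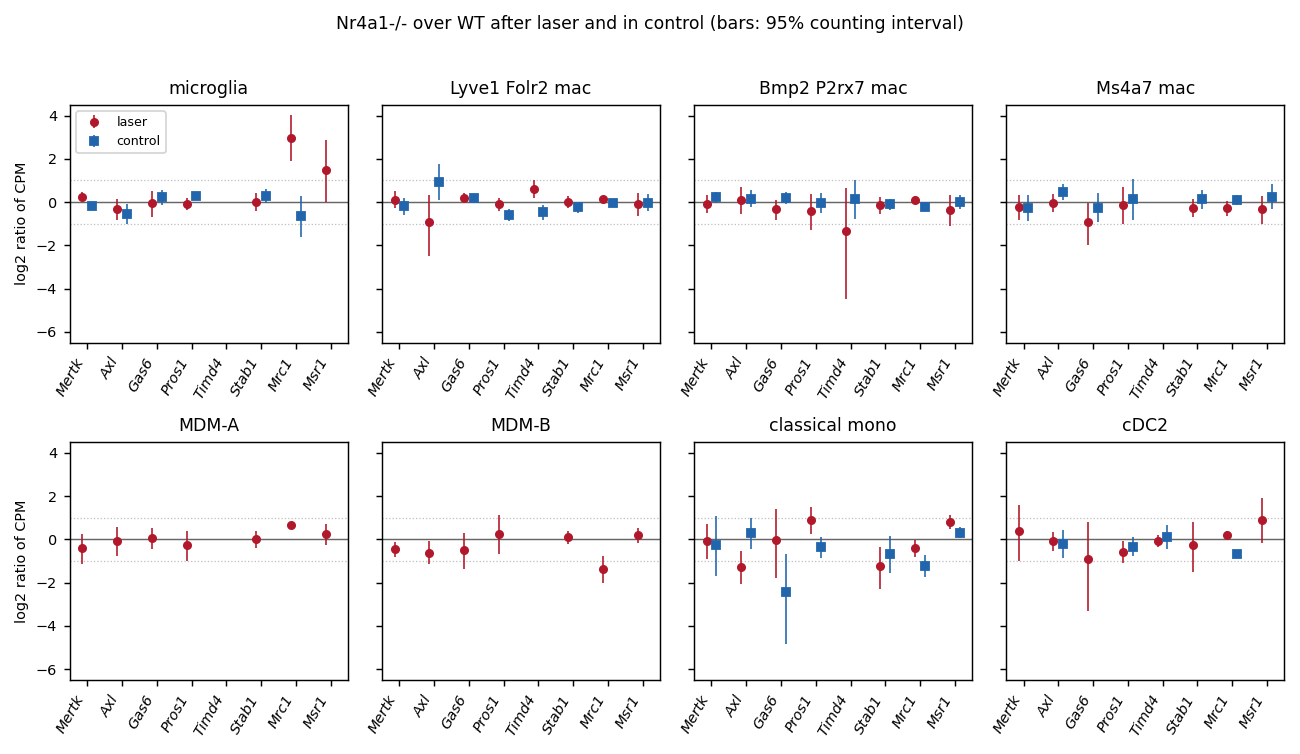
Ratio of CPM in Nr4a1-/- over WT on a log2 scale (y axes) for each member (x axes) in 8 classes, with laser as red circles and control as blue squares. Bars are exact 95% counting intervals, dotted lines mark 2-fold, and the MDM classes have laser values only because their control libraries held fewer than 20 cells. Most points lay between the dotted lines, and Mrc1 in MDM-B-like cells lay below them.

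In MDM-B-like cells, the Spp1 and Gpnmb class of injured eyes, Mrc1 had 36.8 CPM in Nr4a1-/- laser against 94.7 in WT laser, a ratio of 0.388 (0.246 to 0.591). With clusters from RNA alone its log2 ratio was −0.63 in place of −1.36, short of 2-fold. Mertk had 134 CPM in Nr4a1-/- laser against 183 in WT laser (0.733, interval 0.576 to 0.925), and Axl had 56.6 against 86.4 (0.655, interval 0.450 to 0.936). Stab1 at 1.06 (0.859 to 1.31) and Msr1 at 1.14 (0.885 to 1.45) had intervals that included 1. In MDM-A-like cells Mrc1 differed in the other direction, with 1401 CPM in Nr4a1-/- laser against 893 in WT laser, a ratio of 1.57 (1.43 to 1.72). The 10 Lyve1 Folr2 resident markers, 0 to 1 of them at 0, summed to 3896 to 4609 CPM there over the laser libraries. The 10 MDM-A markers summed to 7803 to 13134.5 CPM there, and to 8776 to 15903 in Bmp2 P2rx7 macrophage-like cells over all libraries. The part of these markers in the Mrc1 ratio was not tested. The other 6 measured members had intervals that included 1 in that class. Each of these values rests on 80 or 87 Nr4a1-/- cells and on 268 or 113 WT cells from 1 pool of mice per genotype.

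Classical monocyte-like cells differed between the genotypes in several members after laser. Axl had 32.6 CPM in Nr4a1-/- laser against 78.2 in WT laser (0.417, interval 0.242 to 0.677), and Stab1 had 19.9 against 47.4 (0.420, interval 0.204 to 0.780). Msr1 went the other way, with 190 CPM in Nr4a1-/- laser against 109 in WT laser (1.75, interval 1.38 to 2.20), as did Pros1 with 59.8 against 32.4 (1.84, interval 1.19 to 2.80). In control the ratios of Axl and Stab1 were 1.20 (0.730 to 1.99) and 0.631 (0.345 to 1.12), and the difference between treatments was not tested. Mrc1 in this class was lower in Nr4a1-/- in both treatments, at 0.757 (0.576 to 0.982) after laser and 0.425 (0.297 to 0.6003) in control. With the per-cell marker gate Axl after laser was 1.25 times the WT level, so this ratio changed direction with the gate. The log2 ratio of Stab1 after laser was −0.28 with the gate in place of −1.25. Gas6 had 3 UMIs in Nr4a1-/- control and 18 in WT control, a ratio of 0.184 (0.0347 to 0.631).

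The other genotype ratios past 2-fold rested on few UMIs or cells. Mrc1 in migratory DC-like cells had 242 CPM (40 UMIs) in Nr4a1-/- laser against 9.35 (6 UMIs) in WT laser, and 20 of the 40 Nr4a1-/- UMIs came from 1 of 23 cells. Timd4 in the same class had 42.4 CPM (7 UMIs) in Nr4a1-/- laser against 101 (65 UMIs) in WT laser, and Axl there was at 0.458 (0.118 to 1.28), on 4 and 34 UMIs. Timd4 in Bmp2 P2rx7 macrophage-like cells was at 0.392 (0.0448 to 1.59) after laser, on 2 and 23 UMIs. In control, Mrc1 in neutrophil-like cells was at 0.0562 (0.00140 to 0.327), with 1 UMI in Nr4a1-/- and 52 in WT, of which 44.2% came from 1 cell. Msr1 in microglia-like cells (7 and 17 UMIs in Nr4a1-/- laser and WT laser) and Mertk in neutrophil-like cells (11 and 11 UMIs) were also at least 2-fold higher in Nr4a1-/- laser, as was Mrc1 in microglia-like cells, where 1 cell held 72.2% of the Nr4a1-/- UMIs. The microglia-like, Lyve1 Folr2 and Bmp2 P2rx7 classes had Mertk ratios of 0.880 to 1.19 over both treatments, and Gas6 ratios in the Lyve1 Folr2 class of 1.16 (0.993 to 1.34) after laser and 1.15 (0.995 to 1.32) in control. Pros1 in that class was at 0.939 (0.762 to 1.15) after laser and 0.660 (0.545 to 0.795) in control.

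Surface protein was read for 2 members, Tim-4 and CD204, among 87 antibody tags. Tim-4 made up 0.480% of all tag counts of Lyve1 Folr2 resident macrophage-like cells in Nr4a1-/- laser, 1.43% in WT laser, with 1.75% in Nr4a1-/- control and 0.740% in WT control. In B-like, T-like and NK-like cells it was 0.0156% to 0.0592%. The class was thus a median of 37.7 times the lymphocyte share over the 4 libraries (18.8 to 56.0 times). Its WT laser value rested on 1 cell with 54.7% of the counts, so the median count per cell is a better guide: it was 1 in Nr4a1-/- laser and 4 in WT laser, against 9 in Nr4a1-/- control and 10 in WT control. Cells with 5 or more counts made up 25.0% and 48.4% after laser, against 65.8% and 73.7% in control, in the same order of genotypes. The median total of all tags per cell in this class was 284 in Nr4a1-/- laser, 689 in WT laser, with 744 in Nr4a1-/- control and 964 in WT control, and its part in these counts was not tested.

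**Figure D4:**
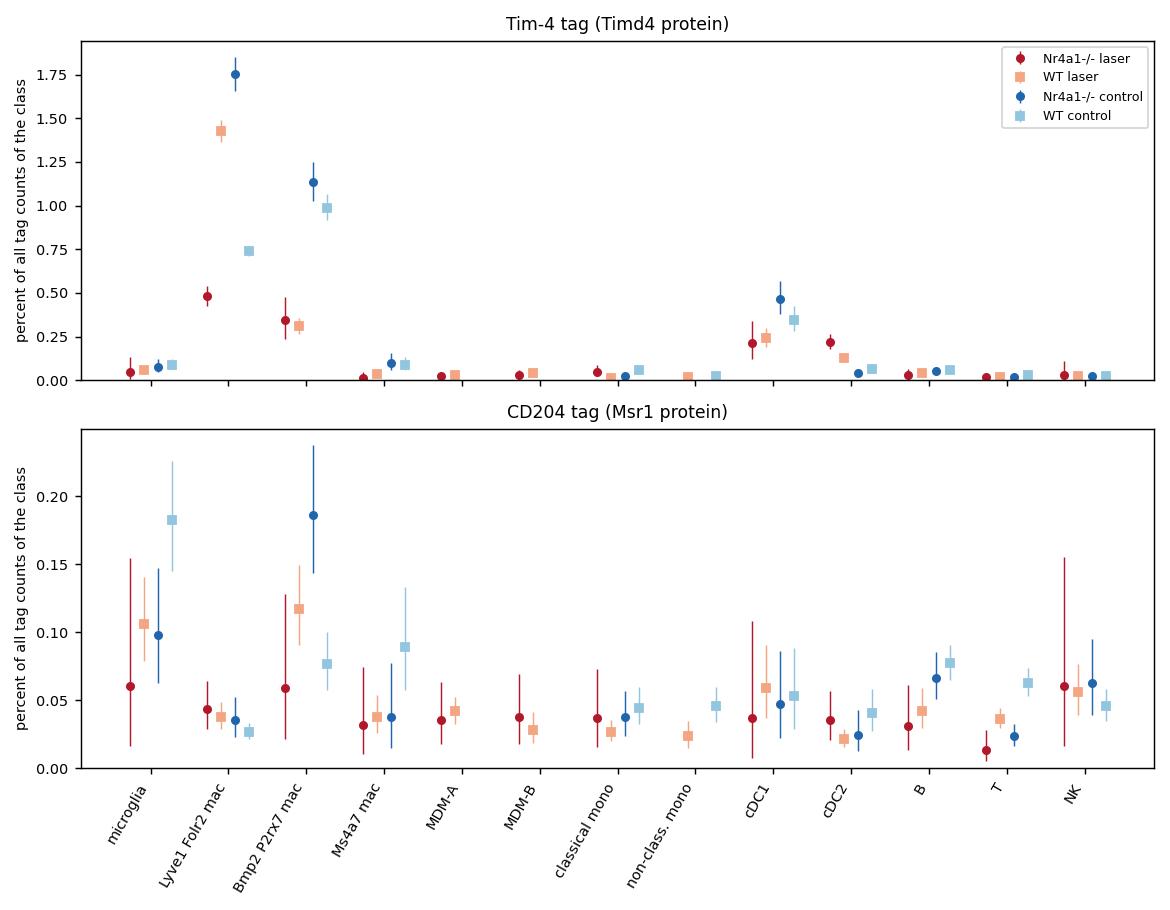
Share of all antibody-tag counts of a class (y axes, percent, starting at 0) taken by the Tim-4 tag (top) and the CD204 tag (bottom) by class (x axis) in the 4 libraries, with exact 95% counting intervals. Tim-4 in Lyve1 Folr2 resident and Bmp2 P2rx7 macrophage-like cells lay above the lymphocyte classes in every library, whereas CD204 in Lyve1 Folr2 resident macrophage-like cells lay within the range of the lymphocytes by this share, though not by mean count per cell.

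Tim-4 protein was also read in the dendritic cells. In cDC2-like cells it made up 0.220% of tags in Nr4a1-/- laser and 0.125% in WT laser, against 0.0407% in Nr4a1-/- control and 0.0615% in WT control. Both laser shares were above the range of the lymphocytes, and 1 of the control shares was within it. In WT laser the cDC2-like cells with a Timd4 UMI had a mean of 2.99 Tim-4 counts and those without 0.133, and in Nr4a1-/- laser the means were 3.24 and 0.0803. In cDC1-like cells the share was 0.211% and 0.240% after laser, against 0.465% and 0.347% in control. The Bmp2 P2rx7 macrophage-like class, where Timd4 RNA was at most 29.7 CPM, had a Tim-4 share of 0.343% and 0.309% after laser, against 1.13% and 0.988% in control. The intervals of the laser and control shares were apart in each genotype in that class.

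The CD204 tag and Msr1 RNA were ordered differently. In Lyve1 Folr2 resident macrophage-like cells it made up 0.0266% to 0.0439% of tags, within the lymphocyte range of 0.0137% to 0.0771%, a median of 0.878 times the lymphocyte share (0.421 to 1.93 over the libraries). By mean tag count per cell the same class was a median of 3.18 times the lymphocytes (2.59 to 8.05), so the direction turned with the measure. Among the phagocyte classes it was highest in Bmp2 P2rx7 macrophage-like cells of Nr4a1-/- control (0.187%) and microglia-like cells of WT control (0.182%), and microglia-like cells had at most 14.97 CPM of Msr1 RNA. No level of CD204 protein was read from this tag.

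The other genes of the pathway were read in microglia-like cells and in all macrophage-like and MDM classes summed. In microglia-like cells 2 of 7 measured bridging and opsonising molecules, 2 of 6 other scavenger receptors and 1 of 4 do-not-eat-me signals were at least 2-fold higher after laser in both genotypes, beside 1.97% of all genes, and none in any list was lower, beside 1.13%. None of the 6 other phosphatidylserine receptors and none of the 14 genes of the engulfment machinery that were measured passed in either direction. The do-not-eat-me gene was Pecam1, named to account for the count after its value was seen. Lgals3, which encodes the lectin galectin-3, had 240 CPM in Nr4a1-/- laser and 101 in WT laser, against 15.5 in Nr4a1-/- control and 27.6 in WT control. Thbs1 (thrombospondin-1, a bridge between dying cells and CD36) was at 12.7 times control in Nr4a1-/- and 9.03 times in WT. Olr1, the receptor of oxidised LDL, was at 6.87 and 3.17 times, and Lrp1, a receptor of calreticulin-marked cells, at 2.04 and 2.12 times. Lgals3 is itself one of the MDM-B markers whose sum moved in this class, and the part of that list in these ratios was not tested.

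In the macrophage-like and MDM classes together 4 of 10 measured bridging molecules, 2 of 12 nuclear receptors and targets of apoptotic cell handling, 1 of 10 scavenger receptors, 1 of 6 phosphatidylserine receptors and 1 of 5 do-not-eat-me signals were at least 2-fold higher after laser in both genotypes, beside 2.04% of all genes. Lower were 2 of 10 scavenger receptors and 1 of 7 TAM proteases and feedback genes, beside 3.77%. The higher genes other than those described next were Lgals3, Olr1, Anxa1, C3, Cd300lf, Nr1h3 and Abcg1, and the lower TAM feedback gene was Ptk2, of which Anxa1, C3, Cd300lf, Nr1h3 and Abcg1 are named only to account for the counts, after their values were seen. Thbs1 had 527 CPM in Nr4a1-/- laser and 407 in WT laser, against 55.1 in Nr4a1-/- control and 44.8 in WT control. Cd24a, a do-not-eat-me signal, had 55.2 and 31.1 CPM against 0.580 and 2.36. Cd163, the haemoglobin scavenger receptor, had 141 and 113 CPM against 376 and 335, and Colec12, a scavenger receptor with a lectin domain, had 41.4 and 39.6 against 126 and 162. The same sums hold far more MDM-like cells after laser, and Thbs1, Lgals3, Cd24a and Cd163 are among the genes used to name classes, so the make-up of the sum and a change within cells cannot be told apart. Over these classes together 8 of the 10 members were measured in both pairs of libraries, none was past 2-fold in both, and the median ratio was 0.607 in Nr4a1-/- and 0.584 in WT. Between Nr4a1-/- and WT no gene of any list, members included, was past 2-fold in one direction in both treatments. Of all genes 0.19% were higher and 0.658% lower in both treatments in microglia-like cells, and 0.131% and 0.232% in the macrophage-like and MDM classes.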

How the data were processed

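Single-cell RNA and antibody-tag libraries of 4 groups were used, 1 pool of eyes per group. Per the submitters' processing notes the authors used Cell Ranger 7.0.1 and mm10, and they deposited raw UMI counts per gene or tag and cell without normalization. The methods name a 3' v3 kit and the labels v2. The fields of the tag samples all read alike, against their titles, so those samples were mapped by title. RNA depth ran from 7848548 UMIs in Nr4a1-/- laser to 38052948 in WT laser, which sets the precision of each value. The number of columns given no sample was 0.

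The cell filter followed the study's methods (between 200 and 5000 genes detected, mitochondrial UMIs not above 15%). They were clustered with Seurat 5.3.0 in R 4.3.3 (reciprocal PCA integration, 2000 variable genes, weighted nearest neighbors on 19 RNA dimensions, 21 within phagocytes, and 12 tag dimensions, resolution 0.4), without the member genes and their tags. A cluster took the name of its best-scoring marker list when at least 3 of its markers were detected, at least 1 was among its 10 leading genes (2 for the general macrophage list, and 2 of the first 3 markers for the tissue macrophage and MDM lists) and its median depth reached 1869 UMIs, 1/3 of the median over kept cells. Clusters below that depth stayed unnamed even where markers led them, among them 1 of B cell and 1 of microglia score. A cluster could score best for a tissue macrophage or MDM list but fail its rule. It became Ms4a7 macrophage-like when at least 2 general macrophage markers led it. The Ms4a7 macrophage-like cluster had scored best for the Bmp2 P2rx7 list, with 1 marker of that list among its leading genes. Doublets were limited by the upper bound on genes, and removing the 294 cells with the highest Scrublet scores (scanpy 1.11.5) was an alternative.

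UMIs were summed per class and library. Levels have exact Poisson intervals, ratios exact conditional binomial intervals and shares exact Clopper-Pearson intervals, all at 95% and for counting error only. Where no UMI was seen, up to 3 were allowed for. No p-value was computed, since each group is 1 sample. The scripts were tested on simulated data. Of 32285 gene identifiers, 32158 had an entry in GENCODE M21, the source of the positions in GRCm38. Sums and intervals were computed in Python 3.11.15 with pandas 2.3.3, scipy 1.17.1 and numpy 2.4.6, figures with matplotlib 3.10.9, and edgeR 4.0.16 gave TMM factors for 1 alternative.

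The members, marker lists and pathway lists were chosen with earlier results of these data known. All 10 members are named. From the other lists up to 4 genes per direction, comparison and class group are named that reached 2-fold with one direction in both pairs of libraries and had 20 UMIs or more where they were higher, in order of their weaker change, and for each member with at least 200 UMIs the 3 genes most like it. Alternatives were clusters from RNA alone, resolution 0.8, a per-cell marker gate, members left in the clustering, a mitochondrial limit of 10%, no upper gene limit, doublet removal, thinning to 2000 UMIs, TMM factors, the mean of the cells' CPM, at least 50 UMIs, and the mean tag count per cell.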

Additional observations from a re-analysis of the deposited data

Results flagged for a closer look

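Mrc1 in microglia-like cells had ratios of laser over control on opposite sides of 1 in the genotypes, at 3.82 in Nr4a1-/- and 0.317 in WT, and the difference was not tested. In Nr4a1-/- laser 72.2% of its UMIs came from 1 cell. The ratio of Nr4a1-/- over WT changed side between laser and control for Mertk in microglia-like cells (1.19 after laser and 0.896 in control). It also did so for Mrc1 in cDC2-like cells (1.15 and 0.616) and for Timd4 in Lyve1 Folr2 resident macrophage-like cells (1.52 and 0.727). None of these differences between treatments was tested.

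Tyro3 had 10 UMIs in a cluster of 128 cells outside the phagocyte comparisons, led by the pigment epithelium genes Ttr, Rgr and Rpe65, which came to 19.99 CPM. It had 0 UMIs in the phagocyte classes.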

How the results depend on the processing

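No paired analysis was possible because each group is 1 library. The 212 ratios were recomputed under 12 settings, which gave 2295 values, of which 2149 kept their direction and size, 138 moved and 8 changed direction. Of the 39 ratios past 2-fold, 33 kept their direction under every setting that gave a value, which was 5 to 12 settings per ratio. The setting of at least 50 UMIs leaves ratios out and cannot change the value of one that stays. The highest class of a member, averaged over libraries, was that of the report for 5 of 8 members with the per-cell marker gate. It was so for 6 with clusters from RNA alone, thinning, TMM factors or the mean of the cells' CPM. The number was 7 at resolution 0.8, with members left in, without an upper gene limit and without the highest cell of each member. It was 8 with the mitochondrial limit of 10%, doublet removal and at least 50 UMIs. The members whose highest class changed under some setting were Axl, Pros1, Stab1 and Msr1. The count of 5 pairs of gene and class past 2-fold after laser in both genotypes was 7 at resolution 0.8, 6 by the mean of the cells' CPM, 3 with the per-cell gate, 3 after thinning, 3 with at least 50 UMIs and 3 without the highest cell of each member, an alternative added once the data had been seen. The count between genotypes was 0 under each setting.

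With clusters from RNA alone, log2 ratios of laser over control turned to 1.17 for Mrc1 in WT microglia-like cells and to −2.12 in Nr4a1-/- and −0.29 in WT for Timd4 in cDC2-like cells. The Ifitm1 cluster, which held Timd4, had no name there, and its part in the Timd4 change was not tested. No Ms4a7 macrophage-like class was named under that setting, so it gave no value. Mrc1 in WT neutrophil-like cells (4 UMIs after laser and 52 in control) turned to 0.86 at resolution 0.8, 0.38 with members left in the clustering and 0.10 without an upper gene limit. With the per-cell gate Mrc1 in WT classical monocyte-like cells turned to −0.26 and Axl there between genotypes after laser to 0.32. The cause of these changes of direction was not tested. The tag ratio of Lyve1 Folr2 cells over lymphocytes was 147 for Tim-4 and 3.18 for CD204 by mean count per cell, in place of 37.7 and 0.878. Depth limits Tyro3, Marco and classes under 20 cells.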

Other observations

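The unnamed clusters, 681 cells of low depth, had 519 CPM of Mertk (664 UMIs), 189 of Pros1, 131 of Mrc1 and 127 of Stab1. By library, Mertk there had 346 CPM in Nr4a1-/- laser and 203 in WT laser, against 538 in Nr4a1-/- control and 758 (690 to 832) in WT control. Microglia-like cells had 443 and 371 CPM after laser, against 516 and 575 in control. Clusters of 363 and 163 of the unnamed cells scored best for the microglia list. The cluster led by pigment epithelium genes had 91.97 CPM of Gas6, 82.0 of Pros1, 68.0 of Axl and 54.0 of Mertk.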
